A study of Mus musculus with 6 samples.

Results

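Adenylyl cyclases are the enzymes that make the second messenger cyclic AMP (cAMP) from ATP. The 9 membrane-bound forms, Adcy1 to Adcy9, were read on expression arrays of the cerebellum of newborn mice whose mothers had received a basal or a higher amount of folic acid (FA). The array lists 34797 gene names, and every probe annotated with one of these 9 was taken, which gave 11 of 55681 probes, with 3 probes for Adcy5 and 1 probe for each of the other 8 genes. All 11 probes were well above background, in the judgement of the image software, on at least 2 arrays. Among its altered neural genes, the study itself lists Adcy3 as up-regulated in both sexes and Adcy5 and Adcy7 as down-regulated in females. Its folds for Adcy3 are smaller than those found here. The family was chosen on the dose difference of Adcy3, and the dose differences of the other members were known by then. The differences between doses below are therefore descriptions with their spread, without a test.

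All pups were C57BL/6J mice killed on postnatal day 1, from dams aged 8 to 10 weeks that ate an amino acid-based AIN-93G diet from a week before mating through pregnancy. The diet held FA at 2 mg/kg in the basal group and at 20 mg/kg in the higher group, and the labels name no other agent or allele. For each sex there was 1 array at 2 mg and there were 2 arrays at 20 mg (replicates 1 and 2), and each array carried RNA pooled from 3 pups of different dams. A pool hides the spread between its pups, the 2 mg groups have no replicate, and the RNA of the second set of 20 mg pools was extracted as a batch of its own. So few arrays limit how precise any value is. The sample titles and the methods give cerebellum as the tissue, while a label field gives whole brain.

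Slide 1 held both 2 mg arrays and female 20 mg replicate 1. Slide 2, scanned on an earlier day, held male 20 mg replicate 1 and an array labelled as female 20 mg replicate 2. Slide 3 held male 20 mg replicate 2. One array stood apart, that labelled female 20 mg replicate 2, and it is called the dim array labelled female from here on. On it 23.3% of the probes were well above background and the median processed signal was 5.14, against 51.1% to 71.9% and 39.0 to 162 on the other 5 arrays. Spearman rho between it and the others averaged 0.657, against averages of 0.861 to 0.889 for these. Its sex-linked transcripts did not match its label. The Y-linked Eif2s3y lay at 10.12 (log2) and well above background there, against 10.62 to 11.99 on the male arrays and 3.32 and 4.04 on the other female arrays. Xist, the transcript of the inactive X chromosome, was at 7.27 and not well above background there, against 9.67 and 10.84 on the other female arrays and the floor of 3.32 on the 3 male arrays. Eif2s3y was also flagged well above background on female 20 mg replicate 1, at 4.04. The Y-linked Ddx3y was at 7.71 on the dim array, against 9.41 to 10.46 on the male arrays and the floor on the other female arrays. Uty, also Y-linked, was at 6.34 there, against 3.94 to 5.90 on the male arrays and the floor on the other female arrays. Kdm5d was at the floor, as it was on male 20 mg replicate 1. None of Ddx3y, Uty and Kdm5d was well above background on the dim array labelled female. Results for the adenylyl cyclases that rest on this array are given with and without it. Of the markers of the cerebellar granule cell lineage, 8 of 8 were well above background on each of the other 5 arrays, and 8 of 9 Purkinje cell markers were. So were 7 of 8 markers of the striatum, 7 of 8 of the brainstem and 5 of 8 of the forebrain. These counts therefore do not tell cerebellum from whole brain.

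As background, stimulatory G proteins activate all membrane-bound adenylyl cyclases, and the cAMP they make acts through protein kinase A, Epac proteins and cyclic nucleotide-gated channels until phosphodiesterases degrade it. The isoforms differ in their other inputs. Calcium and calmodulin stimulate Adcy1 and Adcy8 and, under some conditions, Adcy3. The beta-gamma subunits of G proteins stimulate Adcy2, Adcy4 and Adcy7, calcium inhibits Adcy5 and Adcy6, and Adcy9 responds poorly to forskolin. In the cerebellum, cAMP acts in synaptic plasticity at granule cell synapses and opposes Sonic hedgehog signalling in granule cell precursors.

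The probes are 60 bases long, and their signal is the only measure of each gene here. The first 30 bases of 4 of them are shown, because the results turn on the probe of Adcy3, the member past 2.5-fold on every 20 mg array, and on the 3 probes of Adcy5, which read the same gene and parted on an array. All bases are in lower case since no part is singled out.
Adcy3: tgcattagccatgaaggacacgctcacaaa
Adcy5 probe 1: gcaagaggacaccaggcaaggagcagtggc
Adcy5 probe 2: atgtttccccttggcagaagactctgctag
Adcy5 probe 3: ggaggtgggaaccccaacttgtctttttgt
The Adcy3 probe lies at chr12:4211535-4211594 on the plus strand of mouse genome build mm9. The Adcy5 probes, numbered from the brightest, lie on the plus strand of chromosome 16, at chr16:35304398-35304457 for probe 1, chr16:35304041-35304100 for probe 2 and chr16:35304551-35304610 for probe 3, so that all 3 fit within 570 bases. Exons and untranslated regions of this build were not analysed here. Over the 11 probes the GC content ran from 35.0% to 55.0%, with a median over all probes of the array of 43.3%.

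Levels are log2 values of the processed signal, a brightness from which the image software had subtracted the background, after quantile normalization over the 6 arrays and a floor of 10 on the linear scale (3.32 on the log2 scale). Probes bind with different strength, so levels are compared between arrays for one probe and never between probes. A dose difference is the mean log2 level of the 20 mg arrays of a sex minus the level on its 2 mg array. It is given with the SD of the 2 arrays at 20 mg (n = 2), since n is 1 at 2 mg.

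Adcy3, an isoform known from olfactory and primary cilia, was the member whose signal was higher on every 20 mg array than on either 2 mg array. In males its level was 4.54 at 2 mg and 6.94 and 5.86 on 20 mg replicates 1 and 2. In females the 2 mg array read 4.47, female 20 mg replicate 1 read 5.96 and 8.57 was read on the dim array labelled female. The dose difference was 1.86 in males (3.64-fold; SD of the 20 mg arrays 0.76) and 2.79 in females (6.92-fold; SD 1.85). The probe was well above background on 5 arrays and not on the dim array labelled female, and on female 20 mg replicate 1 alone the difference was 1.48 (2.79-fold). On male 20 mg replicate 2 the difference was 1.33 (2.51-fold), just past 2.5-fold. Being past 2.5-fold upwards on each of the 4 arrays at 20 mg was shared by 0.0403% of the 37252 probes tested (well above background on 2 or more arrays), and lying above both 2 mg arrays on all 4 by 3.75% of them. No member was past 2.5-fold downwards on all 4 (0.0376% of probes were) or below both 2 mg arrays on all 4 (4.60%). These counts of Adcy3 come from the contrast that brought the family in, so they are given as a description.

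Adcy3 was a probe of low signal, lowest in rank at 2 mg, at percentiles 39.1 in males and 38.5 in females among all probes. On the 20 mg arrays it lay at percentiles 52.3 to 73.4. Before normalization its processed signal was 51.5 on the male 2 mg array, 143 on male 20 mg replicate 1 and 46.3 on male 20 mg replicate 2. It was 37.7 on the female 2 mg array, 208 on female 20 mg replicate 1 and 15.8 on the dim array labelled female. Thus in unscaled signal only replicate 1 of each sex was brighter than the 2 mg array. On both replicates 2 the level was higher only after scaling to the common distribution. Male 20 mg replicate 1 was about as dim as male 20 mg replicate 2, with median processed signals of 40.9 and 39.0, and was scaled as well. Within slide 1, where female 20 mg replicate 1 sat beside both 2 mg arrays, Adcy3 was higher in unscaled and in normalized signal. That array was brighter as a whole, with a median processed signal of 162, against 93.2 on the female and 119 on the male 2 mg array. Its unscaled signal alone therefore does not tell Adcy3 from the brightness of the array.

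**Figure D1:**
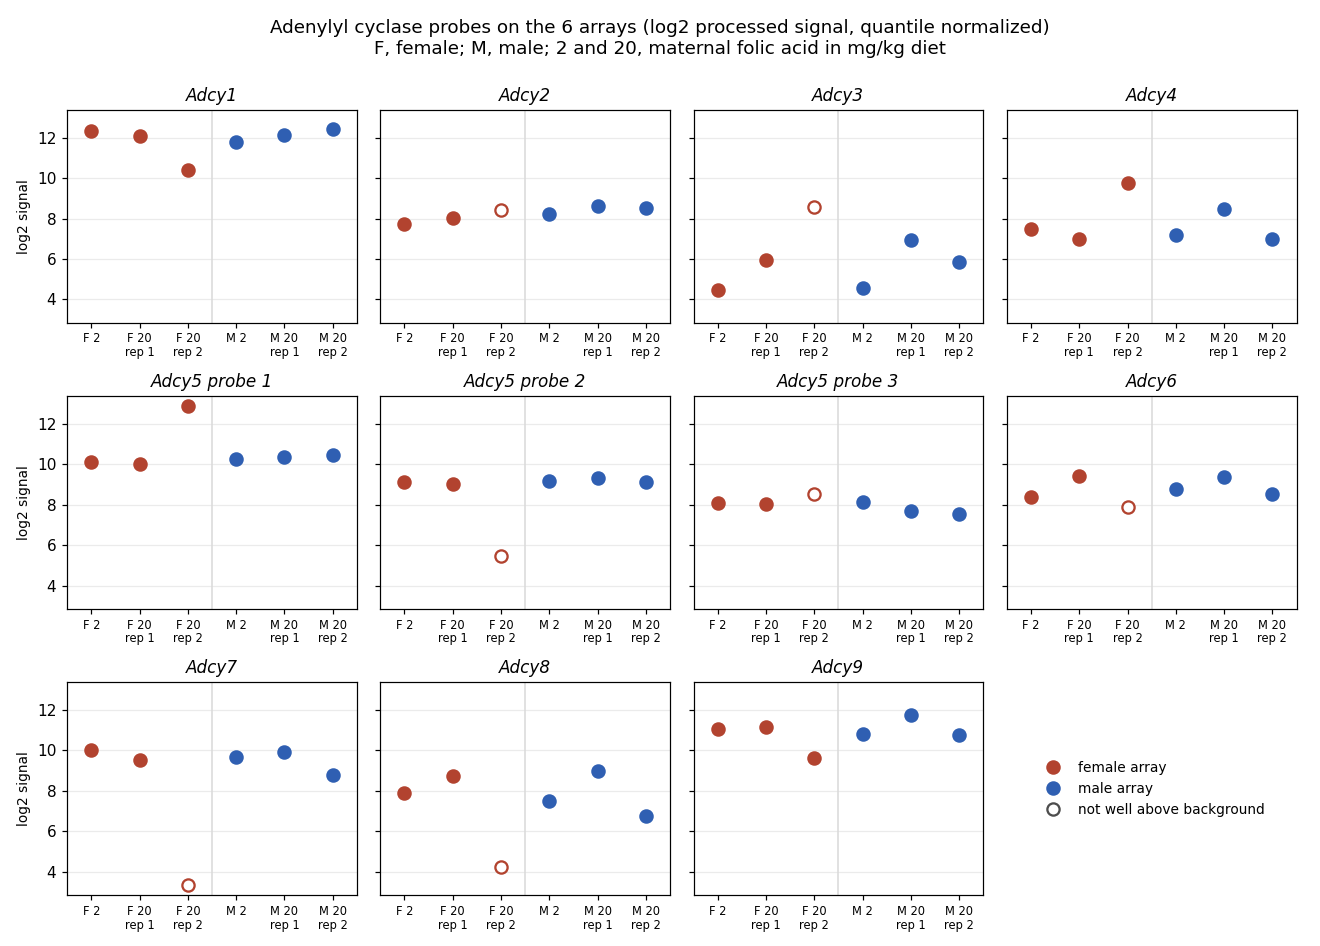
Log2 processed signal (vertical axis, quantile normalized) of each adenylyl cyclase probe on the 6 arrays, females in red and males in blue, with open points where the probe was not well above background. Adcy3 lies at 4.47 and 4.54 at 2 mg and between 5.86 and 8.57 at 20 mg, and the dim array labelled female departs from the others for most probes.

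The choroid plexus markers were, in sum, also higher at 20 mg. Of 7 markers, 6 were well above background on each of the other 5 arrays, and 6 were so on the dim array labelled female. Their summed level (log2) was 14.74 at 2 mg and 15.56 and 15.48 at 20 mg in males, and 12.56 at 2 mg and 16.31 and 14.94 at 20 mg in females. It was the only one of 11 marker lists whose sum was higher on all 4 arrays at 20 mg than on the 2 mg array of the same sex. Only 3 of its 7 markers, Ttr, Folr1 and Clic6, were higher on each. The sum also differed between the 2 mg arrays, at 14.74 in males and 12.56 in females. The part of the choroid plexus in the Adcy3 signal was not tested.

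By the study's fold rule, which asks for a difference of at least 2.5-fold in a probe that passes a filter on variation over the arrays, 1 of the 11 probes (Adcy3) was up-regulated and none was down-regulated in males. Both words stand for this rule alone, which holds no test. Of all probes 1.42% were up-regulated and 2.17% down-regulated in males. In females Adcy3 was up-regulated, against 8.65% of all probes, and 3 probes were down-regulated, those of Adcy7, Adcy8 and Adcy5 probe 2, against 10.3% of all probes. These shares are over all 55681 probes, while all 11 members were well above background on at least 2 arrays. Of the 37252 such probes, 827 were past 2.5-fold upwards and 1561 downwards in males before the filter. In females 2650 were past it upwards and 6447 downwards. On female 20 mg replicate 1 alone, Adcy3 was the only member past 2.5-fold upwards (1.95% of probes were) and 0 members were past it downwards (3.07% of probes were). On the dim array labelled female alone, 3 probes were past it upwards (18.5%) and 5 downwards (34.3%). The 3 down-regulated probes were thus past 2.5-fold on that array and not on the other. Adcy5 probe 1, with a difference of 1.36 in females (2.56-fold), lay just past the threshold and was left out by the filter on variation.

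**Figure D2:**
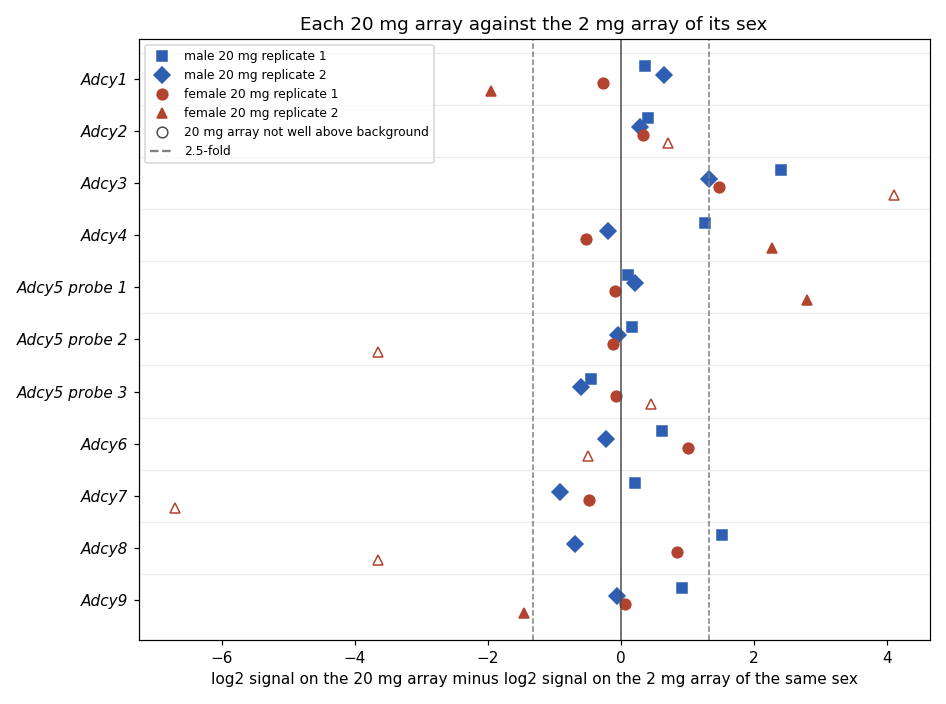
Log2 difference of each 20 mg array from the 2 mg array of its sex (horizontal axis) for the 11 probes, with squares and diamonds for males, circles for female 20 mg replicate 1 and triangles for the dim array labelled female. Dashed lines mark 2.5-fold and open points a probe not well above background; Adcy3 reaches 1.33 to 4.10 on all 4 arrays, and the triangles hold the widest values, down to -6.71 for Adcy7.

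Across all probes, limma, which sets a difference against the spread between the 20 mg arrays, called none of the 37252 probes for the dose in males, in females, over both sexes or for the difference between the sexes. An unadjusted p under 0.05 in this fit was reached by 74 probes in males, 161 in females, 145 over both and 51 for the difference between the sexes. Each count was far below 0.05 of the 37252 probes, the share that chance alone would give. The standard errors it gave the adenylyl cyclase probes ran from 1.06 for Adcy1 to 2.26 for Adcy8 on the log2 scale. That of Adcy3 was 2.14, above its difference in males and below that in females. The gap between the 20 mg arrays of a sex reached 2.5-fold at 9 of the 11 probes in females, against 54.1% of all probes, and at 2 probes (Adcy4 and Adcy8) in males, against 38.2%. The dose difference was larger than the SD of the 20 mg arrays at 5 probes in males (33.6% of all probes) and at 2 probes in females, those of Adcy2 and Adcy3 (29.0%).

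Among the isoforms stimulated by calcium and calmodulin, Adcy1 was well above background on all 6 arrays. Its probe lies at chr11:7077699-7077755 on the plus strand. In males it stood at 11.78 at 2 mg and at 12.15 and 12.42 at 20 mg, a difference of 0.51 (SD 0.20). In females it stood at 12.35 at 2 mg, 12.08 on 20 mg replicate 1 and 10.40 on the dim array labelled female, a difference of -1.11 (SD 1.19). Both male 20 mg arrays were thus above and both female ones below the 2 mg array of their sex, as at 4.18% of all probes, while no member showed the reverse, as 4.82% did. Without the dim array labelled female the difference in females was -0.27 on female 20 mg replicate 1, while the 2 mg arrays of the sexes differed from each other by 0.57.

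Adcy8, a second neuronal isoform of this group, is read by a probe at chr15:64530939-64530998 on the minus strand. In males it stood at 7.47 at 2 mg and at 9.0 and 6.78 on 20 mg replicates 1 and 2, so the 20 mg arrays lay on either side of the 2 mg array and 2.22 apart. In females it stood at 7.87 at 2 mg, 8.71 on 20 mg replicate 1 and 4.22 on the dim array labelled female, where it was not well above background. The difference in females was -1.41 (SD 3.17) over both 20 mg arrays. On female 20 mg replicate 1 alone it was 0.84, of opposite sign, so the down-regulation counted for Adcy8 rests on the other array.

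Of the isoforms stimulated by beta-gamma subunits, Adcy2 varied least between arrays. Its probe, at chr13:68759669-68759728 on the minus strand, read 8.22 at 2 mg and 8.63 and 8.51 at 20 mg in males. In females it read 7.71 at 2 mg, 8.05 on 20 mg replicate 1 and 8.42 on the dim array labelled female, where it was not well above background. The level was higher on each 20 mg array than on the 2 mg array of its sex, by 0.28 to 0.71, and the difference was 0.35 in males (SD 0.09) and 0.52 in females (SD 0.27). The 2 mg arrays of the sexes differed by 0.51, about as much, and the 20 mg arrays of females did not all exceed the male 2 mg array.

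Adcy4, an isoform found in endothelium, was well above background on all 6 arrays, with its probe at chr14:56388004-56388063 on the minus strand. In males it stood at 7.20 at 2 mg and at 8.46 and 7.0 on 20 mg replicates 1 and 2, a difference of 0.54 (SD 1.03). In females it stood at 7.49 at 2 mg, 6.97 on 20 mg replicate 1 and 9.77 on the dim array labelled female, a difference of 0.88 (SD 1.98). In each sex the 20 mg arrays fell on either side of the 2 mg array. Its 2 highest levels were those of the 2 arrays of slide 2.

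Adcy7, an isoform of blood cells and microglia, showed the widest gap between arrays. Its probe lies at chr8:90853657-90853716 on the plus strand. In males it stood at 9.70 at 2 mg and at 9.90 and 8.77 at 20 mg, a difference of -0.36 (SD 0.80). In females it stood at 10.04 at 2 mg and 9.55 on 20 mg replicate 1, and on the dim array labelled female it was not well above background, at the floor of 3.32 with a processed signal of 4.0. The difference of -3.60 in females (SD 4.40) takes its size from that value, and was -0.49 on female 20 mg replicate 1 alone. On the dim array labelled female the summed level of 7 microglial markers was 17.19, above the 14.68 to 16.96 of the other 5 arrays. That of 6 red blood cell markers was 14.90 there, below the 16.07 to 17.49 of the others. On the dim array labelled female 5 of the 7 microglial and 4 of the 6 red blood cell markers were well above background. The part of these cells in the Adcy7 signal was not tested.

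Of the isoforms inhibited by calcium, Adcy5, the main form of the striatum, could be read by 3 probes. Probe 1 read 10.25 at 2 mg and 10.36 and 10.46 at 20 mg in males, and 10.09 at 2 mg, 10.01 on 20 mg replicate 1 and 12.90 on the dim array labelled female. Probe 2 read 9.18 at 2 mg and 9.34 and 9.13 at 20 mg in males, and 9.13 at 2 mg, 9.01 on 20 mg replicate 1 and 5.47 on that array. Probe 3 read 8.14 at 2 mg and 7.70 and 7.54 at 20 mg in males, and 8.09 at 2 mg, 8.02 on 20 mg replicate 1 and 8.55 on that array. Over the other 5 arrays each probe kept within 0.33 to 0.60, with both doses among them.

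On the dim array labelled female the same probes gave differences from the female 2 mg array of 2.80, -3.66 and 0.46, and probe 1 alone was well above background. The probes were thus 6.46 apart on that array, while they were 0.05 apart on female 20 mg replicate 1, 0.60 on male 20 mg replicate 1 and 0.81 on male 20 mg replicate 2. For the 1118 genes with 3 or more probes, the median of this range was 3.16 on the dim array labelled female, and 92.4% of them had a smaller range there than Adcy5. On the other 3 arrays the median range was 0.81 to 1.31, and 0.716% to 30.5% of the genes had a smaller range than Adcy5. The fold rule counted probe 2 as down-regulated in females while probe 1, which lies 297 bases away, was higher.

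**Figure D3:**
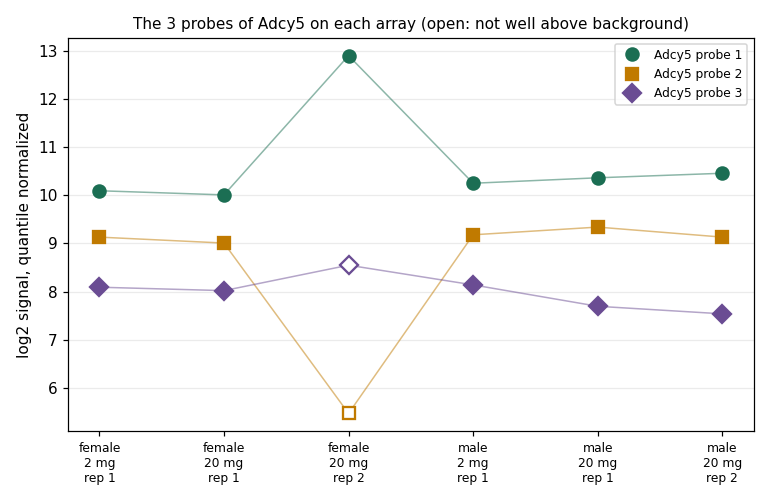
Log2 signal (vertical axis, quantile normalized) of the 3 probes of Adcy5 on each array, open where not well above background. The probes run nearly level over 5 arrays and part on the dim array labelled female, at 12.90, 5.47 and 8.55.

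Adcy6, the other isoform inhibited by calcium, has a probe whose listed position, chr15:98420404-98420418 on the minus strand, covers 15 of its 60 bases. In males it stood at 8.77 at 2 mg and at 9.39 and 8.55 on 20 mg replicates 1 and 2, a difference of 0.20 (SD 0.59). In females it stood at 8.40 at 2 mg, 9.41 on 20 mg replicate 1 and 7.90 on the dim array labelled female, where it was not well above background, a difference of 0.25 (SD 1.07). In each sex the 20 mg arrays lay on either side of the 2 mg array. On female 20 mg replicate 1 the difference was 1.01 (2.01-fold). In the authors' deposited value table the female difference of Adcy6 was -1.35, of opposite sign and down-regulated by the fold rule. Adcy8, at -1.25 in females with those values, was not past the rule.

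Adcy9, a widely expressed isoform, was well above background on all 6 arrays, with its probe at chr16:4287678-4287737 on the minus strand. In males it stood at 10.81 at 2 mg and at 11.74 and 10.76 on 20 mg replicates 1 and 2, a difference of 0.43 (SD 0.69). In females it stood at 11.08 at 2 mg, 11.14 on 20 mg replicate 1 and 9.62 on the dim array labelled female, a difference of -0.70 (SD 1.07). Male 20 mg replicate 2 lay within 0.06 of its 2 mg array, and so did female 20 mg replicate 1 within 0.06 of its own.

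Taken over the 11 probes, 4 were well above background on all 6 arrays (33.3% of all probes tested), and the other 7 on every array except the one labelled female 20 mg replicate 2 (35.8%). On that array 6 of the 11 probes were below and 4 above all other arrays, against 39.9% and 29.2% of all probes. Between the 2 mg arrays no member differed by 2.5-fold between the sexes (1.47% of probes did), with male minus female differences from -0.57 to 0.51. Over the 3 arrays of slide 1 the range was largest for Adcy3, at 1.48, and Adcy3 was the only member whose range reached 2.5-fold, as at 6.54% of all probes. The median range on slide 1 was 0.51 for the 11 probes and 0.47 for all probes. Male doses lie on different slides, so in males slide and dose cannot be told apart. With the scan day as a term the Adcy3 difference was 0.94 in males and 1.87 in females.

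**Figure D4:**
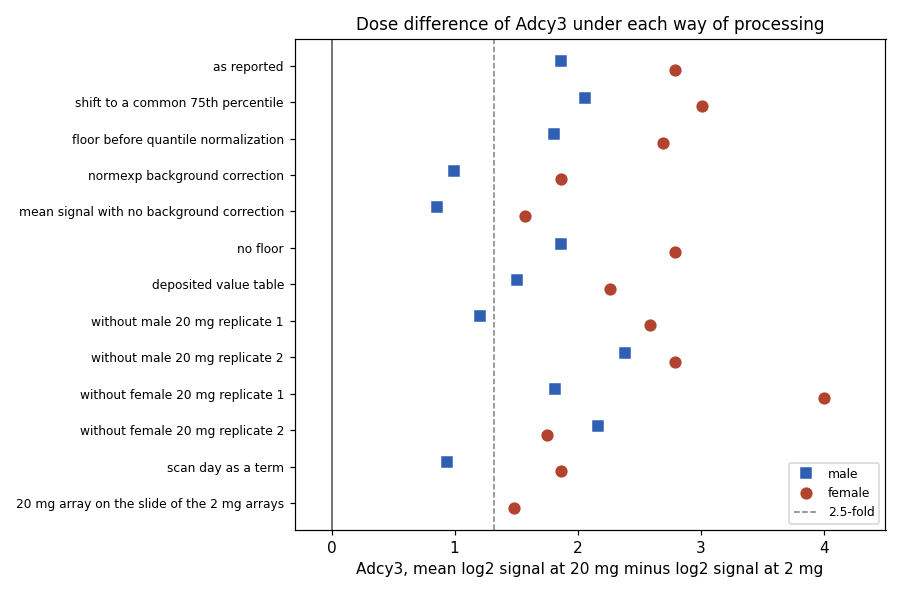
Dose difference of Adcy3 (horizontal axis, log2, 20 mg minus 2 mg) in males (squares) and females (circles) under each way of processing, with 2.5-fold dashed. All values are above 0, from 0.86 to 2.39 in males and from 1.48 to 4.0 in females, and 7 of 11 alternatives in males and 12 of 12 in females reach 2.5-fold.

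The rest of the cAMP pathway was read through 92 other gene symbols in 10 lists, of which 91 were on the array and 88 had their brightest probe well above background on at least 2 arrays. In males 2 of the 88 were up-regulated by the fold rule, against 1.42% of all probes, and 2 down-regulated, against 2.17%. In females 2 were up-regulated, against 8.65% of all probes, and 12 down-regulated, against 10.3%. These shares are over all 55681 probes, while the 88 were well above background on at least 2 arrays. Of the 37252 such probes, 827 were past 2.5-fold upwards and 1561 downwards in males before the filter on variation. In females 2650 were past it upwards and 6447 downwards. On female 20 mg replicate 1 alone none of the 88 was past 2.5-fold upwards (1.95% of probes were) and 2 were past it downwards (3.07%). The median difference of these genes was -0.11 in males, -0.46 in females and -0.10 on female 20 mg replicate 1. By their brightest probes the 9 adenylyl cyclases had medians of 0.41, 0.25 and 0.06. The medians over all 37252 probes were -0.04 in males and -0.21 in females.

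By group, 1 gene each of the protein kinase A subunits (9 tested) and the cAMP-responsive transcription factors (6 tested) was past the fold rule in females. These were Pkia, an inhibitor of the kinase, at -2.06, and Crem at -2.15. Both rest on the dim array labelled female, where neither was well above background, and on female 20 mg replicate 1 alone they differed by 0.64 and by less than 0.01. Of 16 phosphodiesterases, Pde4c was down-regulated in both sexes, at -1.47 in males and -1.53 in females, but on 1 array of each. Male levels of Pde4c were 16.68 at 2 mg and 13.61 and 16.82 at 20 mg, on either side of the 2 mg array. Pde3a, Pde3b, Pde8a and Pde11a were down-regulated in females, at -1.38 to -3.22. On female 20 mg replicate 1 alone these 5 phosphodiesterases differed by 0.00 to 0.26 (log2) in size from the 2 mg array. Of 32 receptors tested, the muscarinic receptor Chrm4 was up-regulated in both sexes. In males it was at 6.14 at 2 mg and at 8.02 and 7.0 at 20 mg, a difference of 1.37. Its difference in females was 2.54, and 0.25 on female 20 mg replicate 1 alone. Smo, the Hedgehog signal transducer, was up-regulated in males at 1.60, with 12.04 at 2 mg and 12.34 and 14.95 at 20 mg, so that a single array was past 2.5-fold. In females Vipr2 was up-regulated at 1.32, and Vipr1, Gpr6 and Gpr12 were down-regulated at -1.94 to -2.19. On female 20 mg replicate 1 alone Vipr2 differed by 0.21, Vipr1 by -0.07, Gpr6 by -0.22 and Gpr12 by -0.16. None of the G protein alpha subunits, Epac proteins, cyclic nucleotide-gated channels or calmodulins was past the rule in either sex. The genes of this paragraph were picked out after their values were seen.

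Of the 88 genes, 2 were past 2.5-fold on both 20 mg arrays of a sex and well above background at 2 mg. Both code for anchoring proteins that hold protein kinase A in place. The share of all probes that meet this rule is not given here, so the 2 genes are a description alone. Taken singly, female 20 mg replicate 1 had 3.07% of probes past 2.5-fold downwards, and the dim array labelled female had 34.3%. In males these counts were 4860 and 3073 of 37252 probes on replicates 1 and 2. Akap7 was at 14.29 at 2 mg and at 12.48 and 11.91 at 20 mg in males, a difference of -2.09. Its difference in females was -1.17, with 0.21 on female 20 mg replicate 1. Akap6 was at 10.90 at 2 mg, 9.56 on female 20 mg replicate 1 and 4.33 on the dim array labelled female, where it was not well above background, a difference of -3.96 that was -1.34 on replicate 1 alone. Akap5 was down-regulated in females as well, at -2.64 over both 20 mg arrays and -0.26 on replicate 1. The soluble adenylyl cyclase Adcy10, which is not a member of the membrane-bound family, was well above background on 1 array and was not compared.

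**Figure D5:**
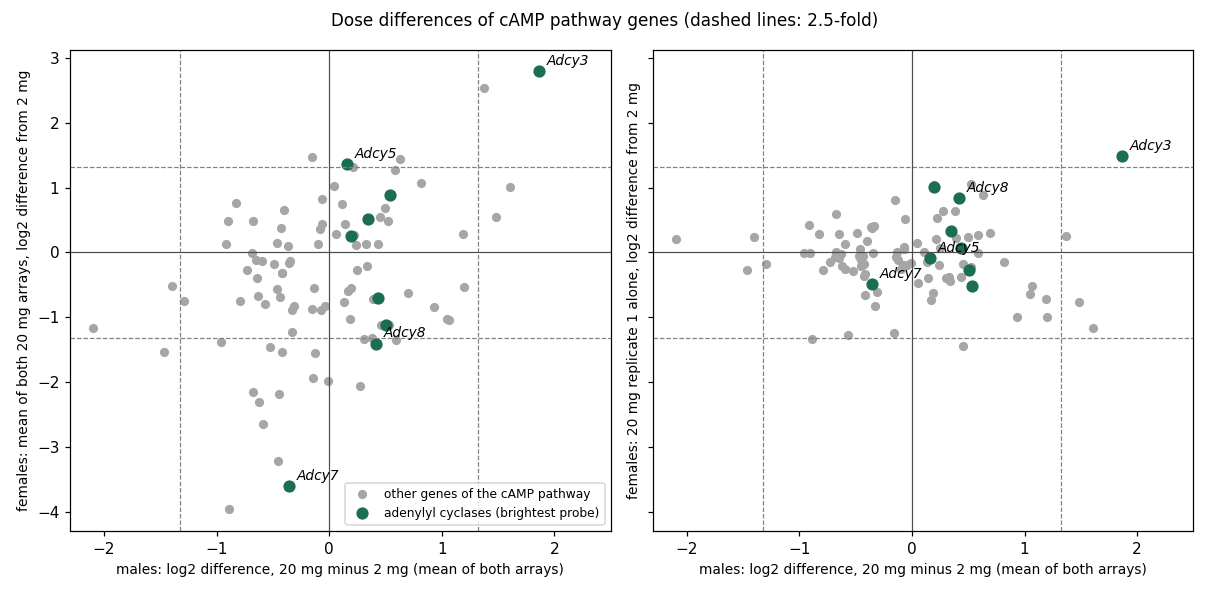
Dose difference in males (horizontal axes, log2) against that in females (vertical axes, log2) for genes of the cAMP pathway, with adenylyl cyclases in green, other genes in grey and 2.5-fold dashed. The left panel takes the mean of both female 20 mg arrays and the right panel female 20 mg replicate 1 alone, where Adcy7 and Adcy8 come back to -0.49 and 0.84 and Adcy3 stays at 1.48.

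The genes whose levels over the 6 arrays were most like those of a member were found among 19826 probes with a gene symbol that were well above background on at least 5 arrays. For Adcy3 they were Clic3, D430041D05Rik and Rrp8, with Pearson r from 0.994 to 0.998, and Chrm4 (r = 0.941) among the pathway genes. Over the 5 arrays without the dim one the values for Adcy3 were 0.986 to 0.995 and 0.860. For Adcy1 they were Acan, B4galt2 and Npy (0.994 to 0.996). For Adcy2 they were Scarb1, Nadk and Abca2 (0.965 to 0.987), for Adcy4 1500015A07Rik, Slc22a18 and Comtd1 (0.998 to 1.00), for Adcy5 probe 1 Mtap7d1, Ambra1 and Defb33 (0.998 to 0.999), for Adcy6 Arl1, Vps13d and Tgs1 (0.997 to 0.999), for Adcy7 Phf2, Prkdc and Elp4 (0.999 to 1.00), for Adcy8 Ctnnbip1, 9930014A18Rik and Hps3 (0.998 to 1.00), and for Adcy9 5430405G05Rik, Slc24a2 and Akap6 (0.999 to 1.00). With 6 arrays and so many probes such values are the highest of a long list, and they share the dim array labelled female. Without it, over 5 arrays, the values of the genes named above for the other members ran from 0.926 (Defb33) upwards. The most alike pathway genes held less evenly. Over 5 arrays their r ran from 0.127 for Adcy1 with Prkar2b (0.950 over 6) to 0.995 for Adcy9 with Akap6 (0.999 over 6). Adcy5 probes 1 and 2, which read the same gene, had r of -0.98 over the 6 arrays and 0.63 over the other 5.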

How the data were processed

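Expression was measured on 6 single-colour Agilent SurePrint G3 mouse arrays of pooled RNA, with sex and dose taken from the labels. The authors made the intensities in the scanner files with Agilent Feature Extraction 10.7.3.1, which subtracts the background, removes a spatial trend and does not scale between arrays. The log2 values of the authors' deposited table were quantile normalized and given a floor by them in BRB-ArrayTools, and served here as an alternative. Here, outlier-flagged spots were left out, and processed signals were averaged per probe, log2-transformed and quantile normalized across all 6 arrays, after which values under 10 were set to 10. Fold calls asked for 2.5-fold and for a chi-square p of the variation over the arrays at or under 0.05, with at most 50% of values missing, which kept 15247 of 55681 probes. limma 3.58.1 (R 4.3.3, trended empirical Bayes) was fitted to 4 groups of sex and dose over 37252 probes (well above background on 2 or more arrays), with Benjamini-Hochberg adjustment at 0.05, and was tested on simulated data. Lone 2 mg arrays were assumed to vary like the 20 mg arrays.

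All probes of the 9 genes are named. A gene value is that of its brightest probe. Of the pathway lists, genes are named that were past 2.5-fold in one direction on both 20 mg arrays of a sex and detected on every array of a dose, and others as said in the text. Marker lists cover granule lineage, Purkinje cells, forebrain, striatum, brainstem, choroid plexus, endothelium, microglia, red blood cells, meninges and astroglia. Members and lists were chosen with earlier results of these data known. Summed levels over the other 5 arrays were 14.97 to 15.86 for granule lineage, 13.37 to 13.89 for Purkinje cells, 11.90 to 14.34 for forebrain, 13.48 to 14.23 for striatum, 11.91 to 14.37 for brainstem, 13.00 to 14.63 for endothelium, 16.07 to 17.49 for red blood cells, 13.85 to 14.59 for meninges and 15.94 to 16.87 for astroglia. The 20 mg deviations of same-numbered replicates correlated at 0.087 between the sexes, so the numbers were not taken to pair the arrays.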

Additional observations from a re-analysis of the deposited data

Results flagged for a closer look

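For Adcy1 the dose differences of the sexes had opposite signs on every array. Both male arrays at 20 mg were above the male 2 mg array, and both arrays labelled female at 20 mg were below the female 2 mg array. The female difference minus the male difference was -1.62 on the log2 scale. In the limma fit over all probes the term for a difference between the sexes called 0 probes, with a lowest adjusted p of 1 and 51 probes at an unadjusted p under 0.05. Those 51 are fewer probes than chance alone would give. The opposition of the sexes was seen at 1 of the 11 probes and at 4.18% of all probes, and the reverse one at 0 of the 11 and at 4.82% of all. Most of the size comes from the dim array labelled female (20 mg replicate 2), at -1.95 from its 2 mg array, against -0.27 for female 20 mg replicate 1. The Y-linked Eif2s3y lay at 10.12 and well above background on the dim array, so the sex of that array is in doubt. The 2 mg arrays of the sexes differed by 0.57 in Adcy1, which is more than female 20 mg replicate 1 did from its own.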

How the results depend on the processing

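The Adcy3 difference kept its sign under all alternatives run, from 0.86 to 2.39 in males and 1.48 to 4.0 in females. Of 198 values of single probes under alternatives that keep both 20 mg arrays of the sex, 184 moved by less than the SD of these arrays and 13 by more. Alternatives that leave out 1 of the 2 arrays are not among these values, since that cannot move a mean by their SD. In females that SD is wide, so these counts do not show stability. Called values changed sign in 3 cases, all of them Adcy8 in females, at 0.12 with normexp, 0.84 on slide 1 and, with an array left out, -3.56 (without female 20 mg replicate 1) to 0.87 (without the dim array labelled female). The 1 up-regulated member in males fell to 0 with a shift to a common 75th percentile, with normexp and with the mean signal, and ranged from 0 (without male 20 mg replicate 1, where Adcy3 was at 1.20) to 2 (without male 20 mg replicate 2) when an array was left out. In females the count of 1 up-regulated was 0 with the 75th percentile, 2 with the floor before normalization or without the variation filter, and 1 to 2 with an array left out (2 without either male 20 mg array or without female 20 mg replicate 1). The 3 down-regulated became 0 with the 75th percentile, 1 with normexp, 0 when both 20 mg arrays had to be past the threshold, 0 on slide 1, and 0 to 3 with an array left out, the 0 being without the dim array labelled female. With the deposited value table the count stayed at 3, but Adcy6 was among them and Adcy8 was not. The 75th percentile shift moved the median of all probes by 1.04 in females and left all 11 probes outside the variation filter or 2.5-fold, although Adcy3 differed by 2.06 in males and 3.01 in females. Against 0 probes over the array, limma called in females 3 with the 75th percentile, 3 with normexp and 1 with the mean signal, and with an array left out 0 to 6 in females, 0 to 1 in males, 0 to 11 over both sexes and 0 to 2 between the sexes. With the replicate block it called 1 probe in males, 10 probes in females and 13 for the mean of the sexes, and none with the scan day as a term. No adenylyl cyclase probe was among the calls, and their lowest adjusted p over all limma alternatives was 0.584. The causes were not tested. Low signal limits Adcy3, lowest in rank at 2 mg, and 7 of 11 probes on the dim array labelled female.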
